A study of Mus musculus with 10 samples.

Results

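The Wnt pathway genes described here were measured by bulk RNA sequencing of dissected pituitary intermediate lobes (ILs) of mice aged 2 to 3 months. They were taken by gene symbol: the Wnt ligands, the Frizzled receptors (Fzd), the secreted antagonists Sfrp1 to Sfrp5 and Dkk1 to Dkk4, the R-spondins (Rspo), their receptors Lgr4 to Lgr6, and Lrp5, Lrp6, Axin1, Axin2, Lef1, Tcf7, Tcf7l1, Tcf7l2, Ctnnb1 and Apc. Of 54 symbols that met this rule, 51 had a row among the 29527 genes of the table, and Dkk1, Wnt3a and Wnt7a were not analysed here. The samples were 4 WT ILs, 3 p27-/- ILs and 3 p27-/-;Sox2+/- ILs. The p27-/- genotype carries no intact copy of Cdkn1b, which encodes the cyclin-dependent kinase inhibitor P27, and p27-/-;Sox2+/- lacks 1 copy of the transcription factor gene Sox2 as well. Both mutant genotypes therefore share the loss of p27, and no group with 1 copy of Sox2 and intact p27 was analysed here. The study asked how loss of p27 alters the IL, which is prone to tumors in p27-/- mice, and how removal of 1 Sox2 copy modifies this. It reports that tumor formation is impaired in p27-/-;Sox2+/- ILs, although they remain hyperplastic. The replicates are described as biological, and the labels do not say whether a sample was 1 IL or several pooled ILs. The study reports mice of mixed background and both sexes, split evenly in WT and with more females than males in both mutant genotypes. The labels do not give the sex of each sample.

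Wnt ligands are secreted lipid-modified proteins. In the canonical pathway a ligand brings a Frizzled receptor together with LRP5 or LRP6, the destruction complex of Axin, APC and GSK3 stops marking beta-catenin (Ctnnb1) for degradation, and beta-catenin enters the nucleus to act with TCF and LEF factors on target genes such as Axin2. Sfrp proteins bind Wnt ligands outside the cell, Dkk proteins of the classical kind block the LRP co-receptors, and R-spondins acting through Lgr receptors protect Frizzled receptors from turnover. Wnt signals take part in the growth of the embryonic pituitary, and the IL is made mainly of melanotrophs, the endocrine cells that process pro-opiomelanocortin.

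Values are log2 normalised expression values as deposited, and a log2 fold change is the difference between 2 genotype means on that scale. Of the 51 members, 33 had a mean log2 value of at least 3.32, which is 10 before taking logs, and were tested. The other 18 were under it, with mean log2 values from -1.88 to 2.89. They comprised 12 Wnt ligands (Wnt1, Wnt2, Wnt3, Wnt6, Wnt7b, Wnt8a, Wnt8b, Wnt9b, Wnt10a, Wnt10b, Wnt11 and Wnt16), Fzd9, Fzd10, Rspo1, Rspo2, Dkk4 and Lef1. Lef1, a nuclear partner of beta-catenin, had the highest mean of these 18, and Wnt1 and Wnt8a, both at -1.88, lay near the lowest value of the whole table, -1.89. In all comparisons the test was limma with a mean-variance trend across 17268 genes, with Benjamini-Hochberg adjustment over all of them and a threshold of 0.05. A gene that passed it is called higher or lower.

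Before the comparisons, the genotype labels and the tissue were checked. Cdkn1b (ENSMUSG00000003031) had log2 values of 8.54, 8.85, 8.39 and 8.66 in WT, 8.27, 8.04 and 8.22 in p27-/- and 8.10, 7.73 and 7.83 in p27-/-;Sox2+/-, and every mutant sample lay below every WT sample. It was still measured in the mutants, with a log2 fold change of -0.43 (SE 0.12, limma adjusted p = 0.047) in p27-/- and -0.72 (SE 0.12, limma adjusted p = 0.00854) in p27-/-;Sox2+/-. Sox2 (ENSMUSG00000074637) was 7.07, 6.88 and 7.04 in p27-/-;Sox2+/-, below all 4 WT (7.34 to 7.75) and all 3 p27-/- samples (7.08 to 7.45), but its log2 fold change of -0.46 against WT did not pass the threshold (limma adjusted p = 0.0811). All 6 melanotroph markers were well measured, the lowest being the prohormone convertase gene Pcsk1 with a mean log2 value of 8.77. Markers of neighbouring tissue were measured too. Lists of posterior lobe pituicyte, anterior lobe endocrine, and fibroblast and mural cell markers were scored as means of values centred per gene. In that order, the scores ranged from -0.75 to 0.89, from -0.79 to 1.68 and from -0.55 to 0.42 across the 10 samples. Centred scores give the spread between samples and not the level of a tissue. The lowest mean log2 value among the markers with a row was 3.36 (Rax, a pituicyte marker), close to the minimum of 3.32 for testing. Of 8 listed anterior lobe markers, 7 had a row. Since whole lobes were sequenced, fewer cells of a type and less RNA per cell cannot be told apart in any value given here.

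Among the ligands, 5 of the 17 measured reached the minimum. Compared per kilobase of the longest annotated transcript, since longer transcripts collect more reads, Wnt5b and Wnt4 were the most abundant in WT, at log2 levels per kb of 5.79 ± 0.13 and 5.68 ± 0.11 (mean ± SD, n = 4). Their ranges, 5.67 to 5.98 and 5.57 to 5.80, overlapped, so these neighbours were not separated beyond their spread. On the unscaled log2 values Wnt4 was above Wnt5b, with means over all samples of 7.32 and 6.94. Their order therefore depends on the transcript lengths used (4194 bases for Wnt4 and 2339 for Wnt5b), which need not be those expressed here. Wnt2b followed at 4.53 ± 0.05, Wnt9a at 4.04 ± 0.34 and Wnt5a at 3.35 ± 0.55 on the same per-kb scale (n = 4 each), and the ranges of Wnt9a (3.70 to 4.46) and Wnt5a (2.61 to 3.88) overlapped. Of the 12 ligands under the minimum, the highest on this scale was Wnt3 at 0.29 ± 0.06. Among the receptors, Fzd3 stood highest at a per-kb log2 level of 8.23 ± 0.11, above the range of every other Frizzled, LRP or Lgr member, followed by the co-receptor Lrp6 at 7.36 ± 0.09 and the R-spondin receptor Lgr4 at 6.54 ± 0.10. The range of Lgr4 (6.44 to 6.69) overlapped those of Lgr6 (5.72 to 6.61) and Fzd5 (5.30 to 7.14) on that scale. Those of Lgr6, Fzd5 and Fzd6 (6.02 to 6.28) overlapped each other, and the lowest tested receptor was Fzd2 at 3.93 ± 0.17. Ctnnb1 reached a per-kb log2 level of 9.97 ± 0.13, the highest of all 51 members. The names Wnt5b, Wnt2b, Wnt9a, Wnt3 and Fzd6 were given for their place in this order, after the values were seen.

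**Figure D1:**
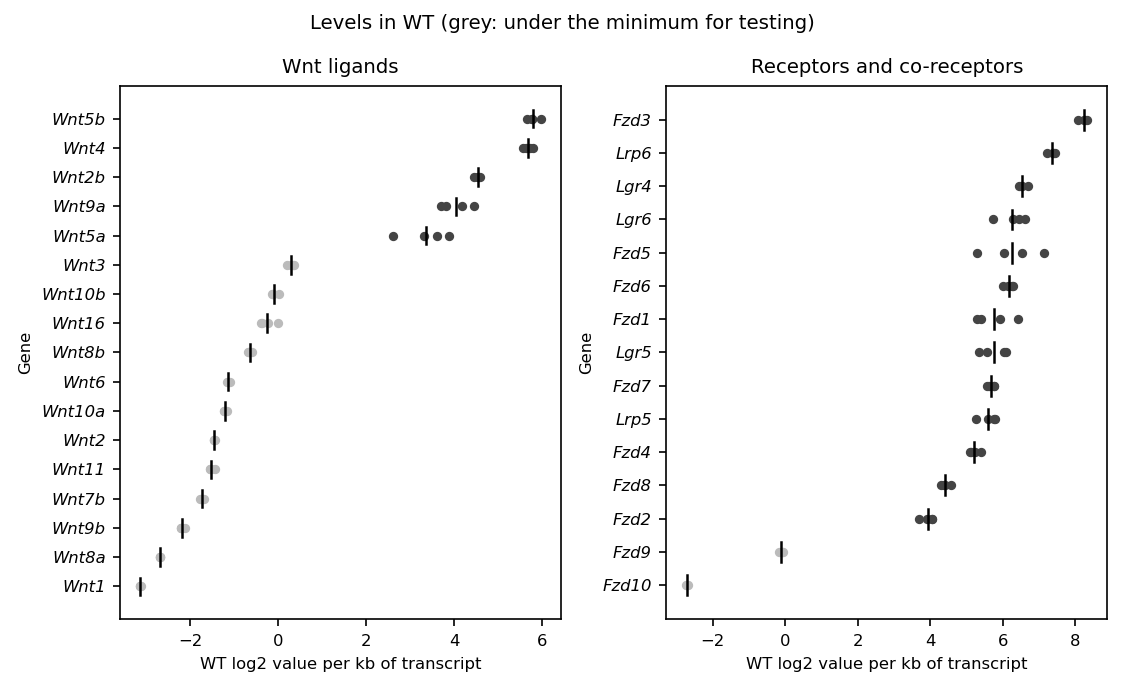
Log2 level per kilobase of transcript in the 4 WT samples (horizontal axis) for the 17 measured Wnt ligands (left) and the Frizzled, LRP and Lgr receptors (right); points are samples, vertical bars are means, and grey marks genes under the minimum for testing. Wnt5b (5.79) and Wnt4 (5.68) lead the ligands and Fzd3 (8.23) the receptors, with a gap between the 5 tested ligands and the other 12.

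In p27-/- ILs, 10 of the 33 tested members (30.3%) differed from WT, 9 of them lower and 1 higher, against 7.78% of all genes tested (4.62% lower and 3.16% higher). Those lower were of 4 kinds: the ligand Wnt4, the receptors Fzd2, Fzd7 and Lgr6, the secreted antagonists Dkk2, Dkk3, Sfrp4 and Sfrp5, and the nuclear factor Tcf7l2. The single member called higher was the antagonist Sfrp1. The median log2 fold change of the 33 members was -0.25, and that of all genes tested was 0.01, with 26 members fitted below 0 and 7 above. At an unadjusted limma p under 0.05 there were 16 members, against 24.1% of all genes, and 11 of the 33 (33.3%) had groups that did not overlap as well, against 16.9%. In p27-/-;Sox2+/- ILs, 5 of the 33 (15.2%) differed from WT, against 2.71% of all genes tested (1.88% lower and 0.828% higher). These were Sfrp1, again higher, and Wnt4, Dkk3, Sfrp5 and Tcf7l2, again lower. The median over the 33 members was -0.15 and over all genes 0.01. Unadjusted, 12 members passed against 17.8% of all genes, and 7 (21.2%) also did not overlap, against 11.8%. Both comparisons use the same 4 WT samples, so their values are given side by side and are not independent.

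**Figure D2:**
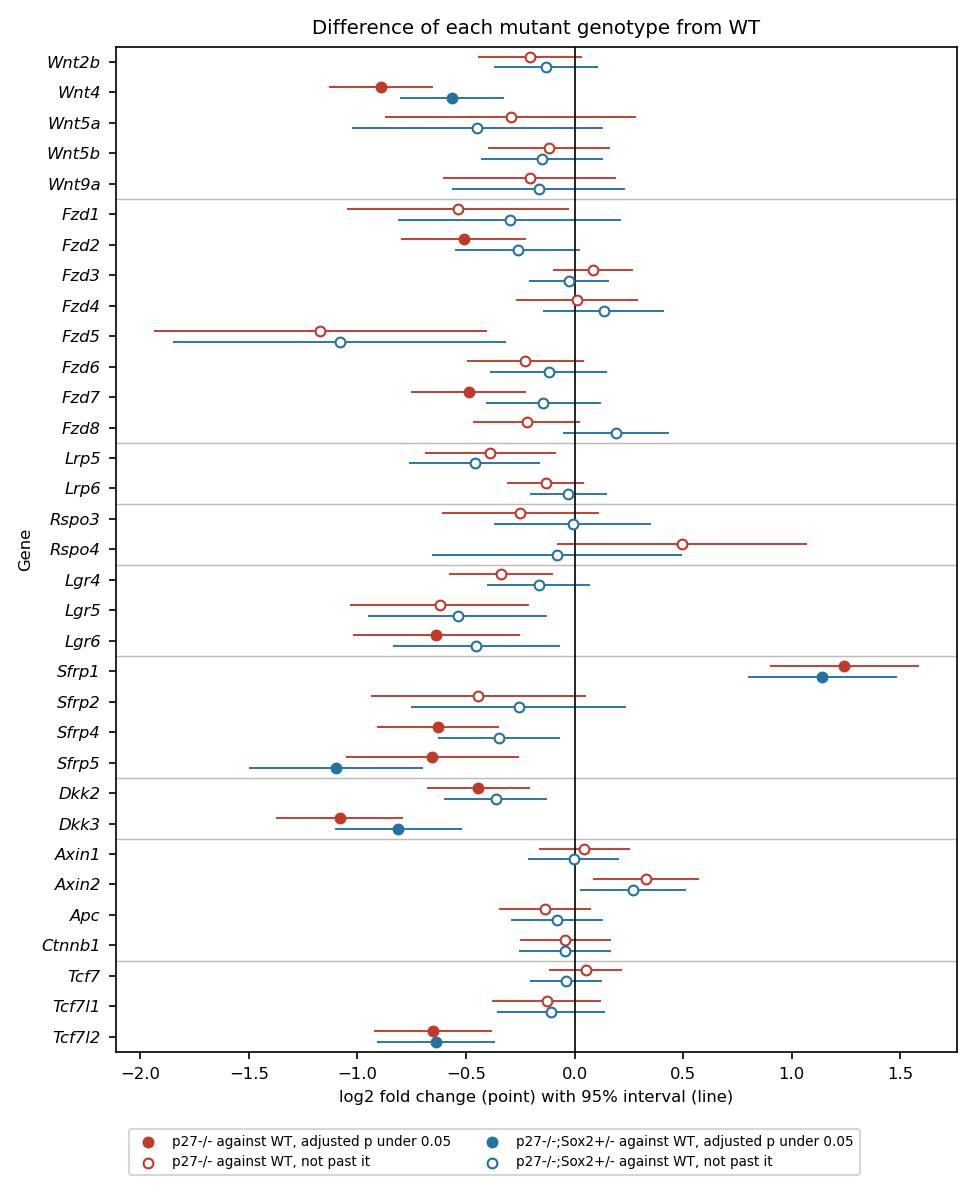
Log2 fold change of each tested member against WT (points, horizontal axis) with its 95% interval (lines), for p27-/- (red) and p27-/-;Sox2+/- (blue); filled points passed an adjusted p of 0.05. Sfrp1 stands to the right at 1.24 and 1.14, while all other filled points lie between -1.10 and -0.44.

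**Figure D3:**
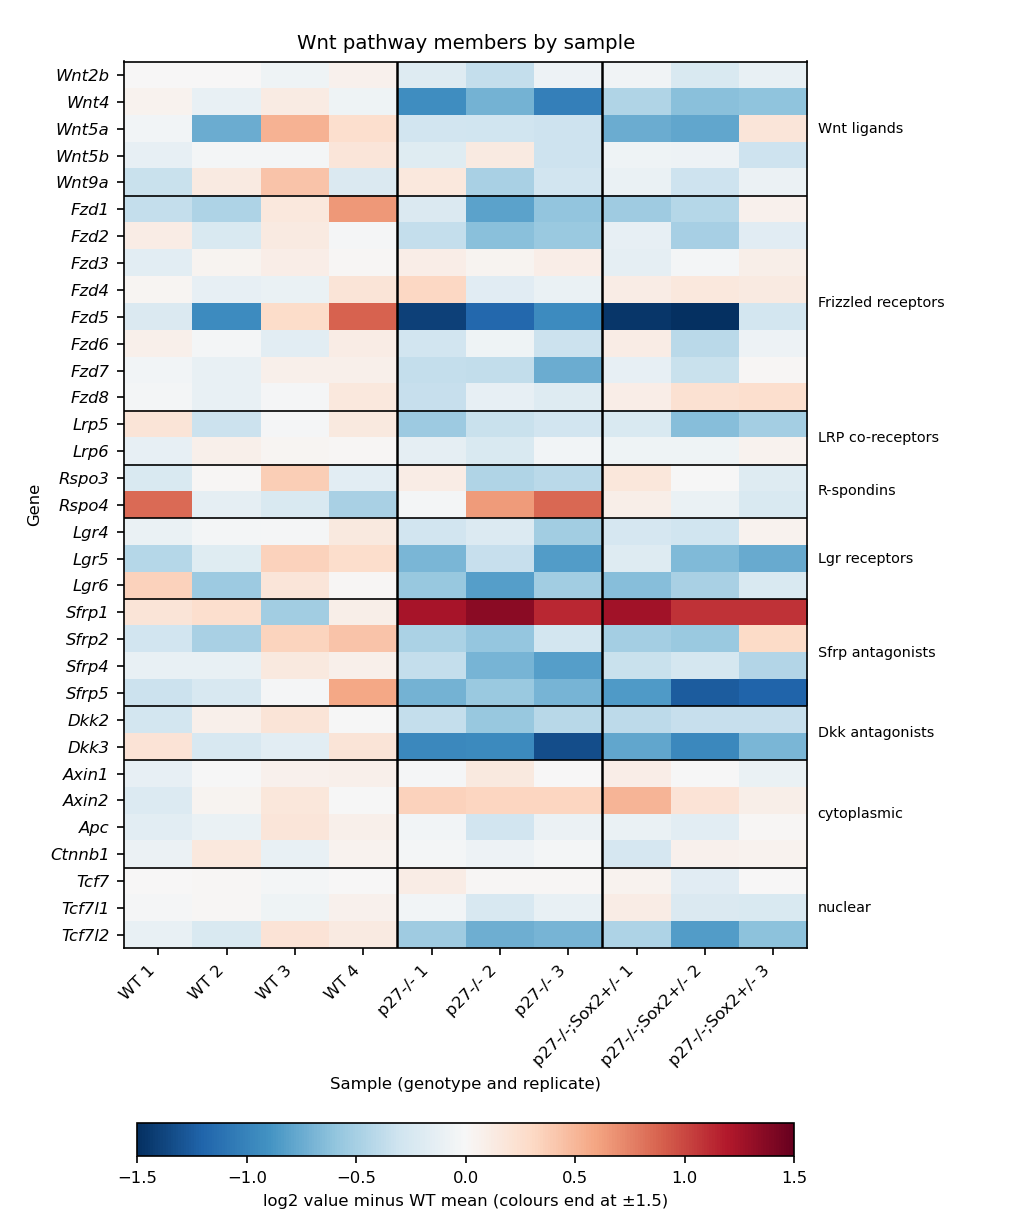
Heat map of the 33 tested members (rows, grouped by role) in the 10 samples (columns); color is the log2 value minus the WT mean of that gene, and colors end at 1.5 either way. The Sfrp1 row is red and the Wnt4, Dkk3 and Tcf7l2 rows are blue in all 6 mutant samples, and Fzd5 and Wnt5a also vary among the WT samples.

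In both comparisons 5 members were called, and the DNA just upstream of the annotated start is shown for Wnt4, Sfrp5 and Tcf7l2, those among them with an entry in the RefSeq promoter table (GRCm38.p6). Dkk3 and Sfrp1 had none. Each sequence is given 5′ to 3′ on the gene's own strand, and bases inside the annotated gene are left out. Capitals mark the 6-letter SOX core CATTGT, searched on both strands. The TCF/LEF core CTTTGAT was searched on both strands as well and is not in the 3 stretches shown, so no matches overlap.
Wnt4, chr4:137277385-137277634, plus strand: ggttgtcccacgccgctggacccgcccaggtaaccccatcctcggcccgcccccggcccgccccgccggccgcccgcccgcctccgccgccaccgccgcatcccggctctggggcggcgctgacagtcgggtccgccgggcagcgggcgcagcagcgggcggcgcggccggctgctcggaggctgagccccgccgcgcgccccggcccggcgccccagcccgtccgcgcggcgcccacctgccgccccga
Tcf7l2, chr19:55741560-55741796, plus strand: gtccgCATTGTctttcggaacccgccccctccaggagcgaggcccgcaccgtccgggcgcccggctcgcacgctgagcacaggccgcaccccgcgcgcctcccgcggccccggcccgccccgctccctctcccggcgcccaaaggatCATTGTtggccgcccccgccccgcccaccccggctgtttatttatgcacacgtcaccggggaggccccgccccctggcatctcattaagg
Sfrp5, chr19:42202253-42202502, minus strand: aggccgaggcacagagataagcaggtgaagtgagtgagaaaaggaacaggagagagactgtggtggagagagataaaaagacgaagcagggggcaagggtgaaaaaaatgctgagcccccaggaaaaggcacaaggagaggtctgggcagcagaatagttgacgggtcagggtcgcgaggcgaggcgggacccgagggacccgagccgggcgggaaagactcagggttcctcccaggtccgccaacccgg

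Tcf7l2 held the SOX letters at positions -245 and -103 from the annotated start of this transcript, and Wnt4 and Sfrp5 held neither motif in these letters. The Wnt4 window was 85.2% G or C, where the median of all 32851 windows of 250 bases was 52.4%. Across those windows, 10.7% held the SOX letters and 3.21% the TCF/LEF letters. The 32 members with an entry had 41 windows, of which 5 (12.2%) held the SOX letters (in Lef1, Lgr6, Tcf7l2, Wnt1 and Wnt16) and 2 (4.88%) the TCF/LEF letters (in Wnt5b and Wnt11). Of the 10 members called in p27-/-, 6 had a window (Wnt4, Tcf7l2, Sfrp5, Dkk2, Fzd7 and Lgr6). Among them Tcf7l2 and Lgr6 held the SOX letters and none the TCF/LEF letters. These counts are over whole windows, and the Lgr6 match, at position -62, lay in bases inside the annotated gene. A letter match describes the sequence and is not a binding site.

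Wnt4 (ENSMUSG00000036856, chromosome 4, 137277635 to 137299501, GRCm38) encodes a ligand with roles in female reproductive tract, kidney and pituitary development. Its log2 values were 7.80, 7.64, 7.87 and 7.69 in WT, 6.82, 7.04 and 6.73 in p27-/-, and 7.30, 7.12 and 7.14 in p27-/-;Sox2+/-. The 3 genotypes did not overlap, with WT highest, p27-/- lowest and p27-/-;Sox2+/- between them. The log2 fold change was -0.89 in p27-/- (SE 0.11, 0.539-fold, limma adjusted p = 0.000764) and -0.57 in p27-/-;Sox2+/- (SE 0.11, 0.676-fold, limma adjusted p = 0.0186). Between the mutants it was 0.33 higher with 1 Sox2 copy (95% interval 0.07 to 0.58), which did not pass the threshold (limma adjusted p = 0.555). The other 4 tested ligands did not pass in any comparison, with log2 fold changes in p27-/- from -0.29 (Wnt5a) to -0.12 (Wnt5b). Wnt5a, a ligand of the beta-catenin-independent branch, varied most among WT samples (6.13, 5.42, 6.69 and 6.42), more than its distance from the p27-/- mean of 5.87.

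The antagonists moved in opposite directions. Sfrp1 (ENSMUSG00000031548, chromosome 8, 23411383 to 23449632), which encodes a secreted Frizzled-related protein that binds Wnt ligands, had log2 values of 7.08, 7.14, 6.36 and 6.97 in WT. They were 8.13, 8.24 and 8.02 in p27-/- and 8.15, 7.98 and 7.97 in p27-/-;Sox2+/-. All 6 mutant samples lay above all 4 WT samples, and the mutants overlapped each other. Its log2 fold change was 1.24 in p27-/- (SE 0.16, 2.37-fold, limma adjusted p = 0.000841) and 1.14 in p27-/-;Sox2+/- (SE 0.16, 2.21-fold, limma adjusted p = 0.00405). The difference between the mutants was -0.10, with a 95% interval from -0.47 to 0.27.

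Sfrp5 (ENSMUSG00000018822, chromosome 19, 42197971 to 42202252), a relative of Sfrp1, showed the reverse direction. Log2 values were 5.73, 5.82, 6.03 and 6.64 in WT, 5.35, 5.50 and 5.36 in p27-/-, and 5.20, 4.81 and 4.86 in p27-/-;Sox2+/-. The 3 genotypes did not overlap, and here the compound mutant was lowest. The log2 fold change was -0.65 in p27-/- (SE 0.19, limma adjusted p = 0.047) and -1.10 in p27-/-;Sox2+/- (SE 0.19, 0.467-fold, limma adjusted p = 0.0083). The difference between the mutants, -0.44 (95% interval -0.87 to -0.02), did not pass the threshold (limma adjusted p = 0.718).

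Sfrp4 (ENSMUSG00000021319, chromosome 13, 19623175 to 19632825), another Frizzled-related antagonist, had log2 values of 6.88, 6.89, 7.14 and 7.08 in WT, 6.64, 6.30 and 6.17 in p27-/-, and 6.66, 6.73 and 6.56 in p27-/-;Sox2+/-. Every mutant sample lay below every WT sample. Its log2 fold change passed in p27-/- (-0.63, SE 0.13, limma adjusted p = 0.0123) and not in p27-/-;Sox2+/- (-0.35, SE 0.13, limma adjusted p = 0.174), and the mutants differed by 0.28 (95% interval -0.02 to 0.58). Sfrp2, the least abundant Sfrp here on the unscaled log2 values, ranged from 4.16 to 5.08 in WT and from 4.07 to 4.94 in the mutants, and its difference from WT did not pass in either.

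Dkk3 (ENSMUSG00000030772, chromosome 7, 112116019 to 112159482) encodes a divergent member of the Dickkopf family whose action on the LRP co-receptors is less clear than that of its relatives. Its log2 values were 9.25, 8.80, 8.89 and 9.23 in WT, 8.08, 8.09 and 7.71 in p27-/-, and 8.26, 8.07 and 8.36 in p27-/-;Sox2+/-. All mutant samples lay below all WT samples. The fitted log2 fold change was -1.08 in p27-/- (SE 0.14, 0.472-fold, limma adjusted p = 0.000764) and -0.81 in p27-/-;Sox2+/- (SE 0.14, 0.57-fold, limma adjusted p = 0.00763). Dkk2 (ENSMUSG00000028031, chromosome 3, 132085266 to 132180304), a ligand of LRP5 and LRP6, was much lower in abundance, with log2 values of 4.24, 4.59, 4.71 and 4.51 in WT, 4.16, 3.95 and 4.10 in p27-/- and 4.12, 4.16 and 4.17 in p27-/-;Sox2+/-. Here too no mutant sample reached the WT range, although the gap to the lowest WT sample was small. Its log2 fold change was -0.44 in p27-/- (SE 0.11, limma adjusted p = 0.0292) and -0.36 in p27-/-;Sox2+/- (SE 0.11, limma adjusted p = 0.101).

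**Figure D4:**
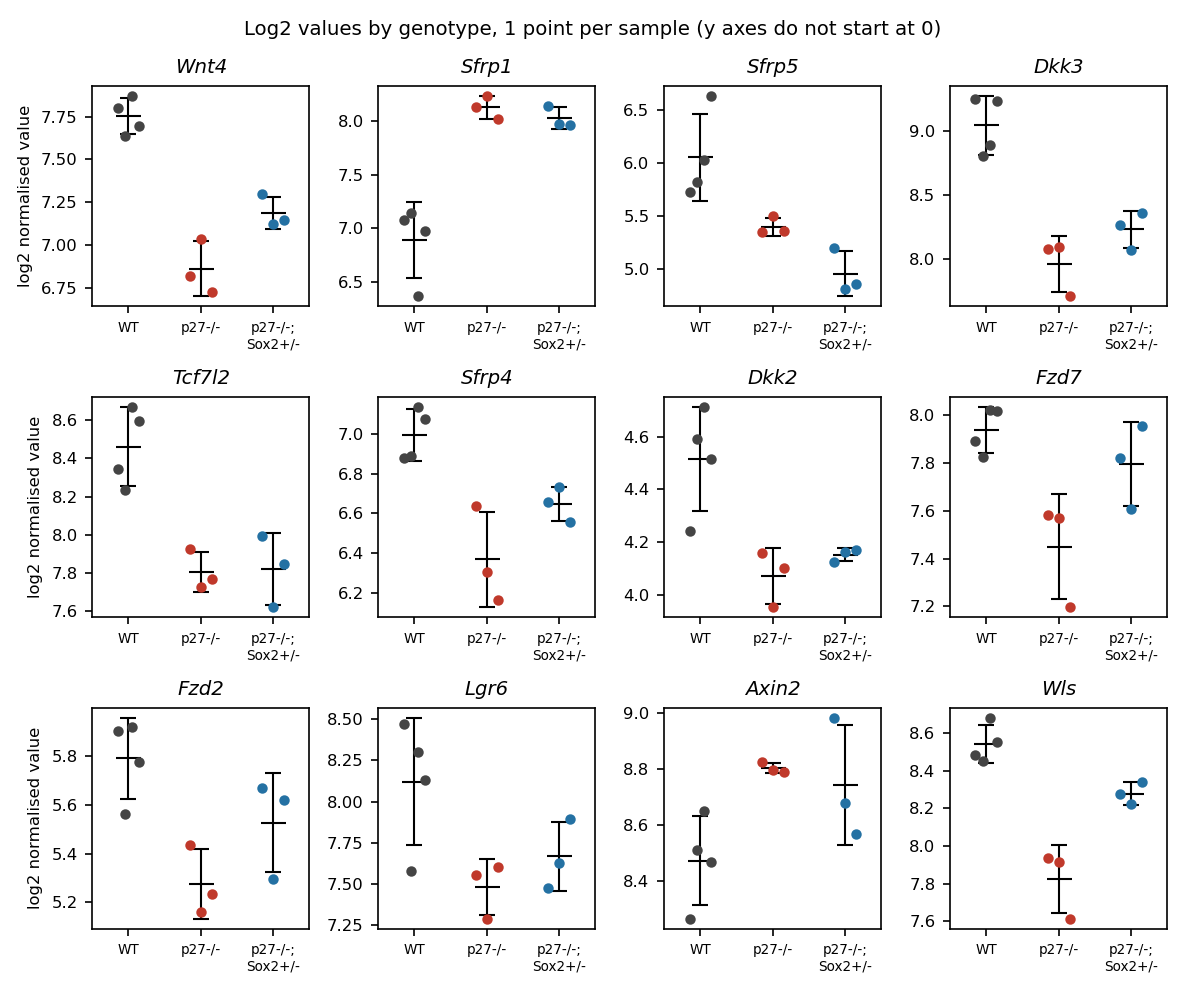
Log2 values (vertical axes, which do not start at 0) of the 10 members called in p27-/-, Axin2 and Wls in WT (grey, n = 4), p27-/- (red, n = 3) and p27-/-;Sox2+/- (blue, n = 3); points are samples, bars are mean ± SD. Sfrp1 is higher in both mutants (means 8.13 and 8.03 against 6.89 in WT), and Wnt4 lies lowest in p27-/- (6.86), with p27-/-;Sox2+/- (7.19) below WT (7.75).

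Among the Frizzled receptors, Fzd7 and Fzd2 were called lower in p27-/- and none was called in p27-/-;Sox2+/-. Fzd7 (ENSMUSG00000041075, chromosome 1, 59482147 to 59486955) had log2 values of 7.89, 7.82, 8.02 and 8.02 in WT, 7.58, 7.57 and 7.20 in p27-/- and 7.82, 7.61 and 7.96 in p27-/-;Sox2+/-. The p27-/- samples lay below all others, while p27-/-;Sox2+/- overlapped WT. Its log2 fold change was -0.49 in p27-/- (SE 0.12, 0.713-fold, limma adjusted p = 0.0305) and -0.14 in p27-/-;Sox2+/- (SE 0.12, limma adjusted p = 0.579). Between the mutants the difference was 0.34 (95% interval 0.06 to 0.63, limma adjusted p = 0.595), so the loss of the call in the compound mutant was not itself a difference that passed.

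Fzd2 (ENSMUSG00000050288, chromosome 11, 102604431 to 102608058) had log2 values of 5.90, 5.56, 5.92 and 5.77 in WT, 5.44, 5.16 and 5.24 in p27-/- and 5.67, 5.29 and 5.62 in p27-/-;Sox2+/-. Again p27-/- lay below WT and the compound mutant overlapped both. The log2 fold change was -0.51 in p27-/- (SE 0.13, limma adjusted p = 0.0353) and -0.26 in p27-/-;Sox2+/- (SE 0.13, limma adjusted p = 0.328). With the fibroblast and mural marker score described further on as a covariate, the p27-/- value was -0.32 and did not pass (limma adjusted p = 0.265). Fzd8 moved apart between the mutants without passing, with log2 values of 5.81, 6.04 and 5.97 in p27-/- and 6.26, 6.38 and 6.41 in p27-/-;Sox2+/- (difference 0.41, 95% interval 0.15 to 0.67, limma adjusted p = 0.354). Fzd3, the most abundant Frizzled, differed by 0.08 and -0.03 log2 from WT in the 2 mutants.

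Fzd5, singled out after its values were seen, had the lowest log2 fold change of all members in p27-/- and did not pass. The samples had log2 values of 8.82, 8.09, 9.32 and 9.93 in WT, 7.64, 7.86 and 8.10 in p27-/-, and 7.57, 7.53 and 8.77 in p27-/-;Sox2+/-, so the groups overlapped. This gave a log2 fold change of -1.17 in p27-/- (SE 0.36, limma adjusted p = 0.0613) and -1.08 in p27-/-;Sox2+/- (SE 0.36, limma adjusted p = 0.125). Under 5 of 22 other settings the p27-/- difference passed, and under 2 the p27-/-;Sox2+/- difference, so these lie close to the threshold. The posterior lobe pituicyte score ran in parallel within genotypes. It was 0.44, -0.58, 0.70 and 0.89 in the 4 WT samples and -0.63, -0.75 and 0.64 in the 3 p27-/-;Sox2+/- samples. The lowest Fzd5 values in each of these genotypes were in samples with negative pituicyte scores. This pattern was not particular to that score. The fibroblast and mural score was also lowest in WT replicate 2 (0.01) and in p27-/-;Sox2+/- replicates 1 and 2 (-0.21 and -0.47). A macrophage and microglia marker score was lowest in the same samples (-0.22, -0.21 and -0.28). With the pituicyte score as a covariate, neither Fzd5 difference from WT passed, as without it. What part of the Fzd5 values was posterior lobe RNA was not tested.

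All 3 R-spondin receptors were fitted lower in p27-/-, with a median log2 fold change of -0.62 (-0.36 over the 8 tested Frizzled receptors), and 1 of them was called. Lgr6 (ENSMUSG00000042793, chromosome 1, 134983300 to 135105374), was called lower in p27-/-. Its log2 values were 8.47, 7.58, 8.30 and 8.13 in WT, 7.55, 7.29 and 7.60 in p27-/- and 7.48, 7.63 and 7.89 in p27-/-;Sox2+/-, and WT replicate 2 sat within the range of each mutant, so the groups overlapped. The log2 fold change was -0.64 in p27-/- (SE 0.18, limma adjusted p = 0.0451) and -0.45 in p27-/-;Sox2+/- (SE 0.18, limma adjusted p = 0.197). The p27-/- value moved to -0.42 with the pituicyte marker score as a covariate and to -0.36 with the fibroblast and mural score, and passed with neither (limma adjusted p = 0.185 and 0.326). Lgr4 did not overlap between p27-/- (8.59, 8.68 and 8.36) and WT (8.78, 8.86, 8.87 and 9.02) but did not pass (-0.34, limma adjusted p = 0.0783). Lgr5, a receptor and known stem cell marker in other epithelia, overlapped and did not pass (-0.62, SE 0.19, limma adjusted p = 0.0644).

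Of the LRP co-receptors, Lrp6 differed by -0.13 and -0.03 log2 in the 2 mutants, and Lrp5, singled out after its values were seen, by -0.39 and -0.46 (limma adjusted p = 0.107 and 0.101). Rspo4, the more abundant of the 2 tested R-spondins, had log2 values of 7.57, 6.59, 6.49 and 6.24 in WT, 6.70, 7.37 and 7.59 in p27-/- and 6.81, 6.63 and 6.49 in p27-/-;Sox2+/-. These overlapped throughout, and WT replicate 1 lay within the p27-/- range.

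Inside the cell, the only member called was Tcf7l2 (ENSMUSG00000024985, chromosome 19, 55741797 to 55933659), which encodes the TCF4 factor that binds beta-catenin on DNA. Log2 values were 8.34, 8.23, 8.67 and 8.60 in WT, 7.93, 7.73 and 7.77 in p27-/- and 8.00, 7.62 and 7.85 in p27-/-;Sox2+/-. All 6 mutant samples lay below all WT samples, and the mutants overlapped. Its log2 fold change was -0.65 in p27-/- (SE 0.13, 0.636-fold, limma adjusted p = 0.00869) and -0.64 in p27-/-;Sox2+/- (SE 0.13, 0.642-fold, limma adjusted p = 0.0186), with a difference between the mutants of 0.01 (95% interval -0.28 to 0.30).

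The transducer Ctnnb1 differed from WT by -0.04 log2 in each mutant, with 95% intervals from -0.25 to 0.17 in both. Axin2, a scaffold of the destruction complex and a widely used readout of canonical signalling, had log2 values of 8.27, 8.51, 8.65 and 8.47 in WT, 8.83, 8.80 and 8.79 in p27-/- and 8.98, 8.68 and 8.57 in p27-/-;Sox2+/-. All p27-/- samples lay above all WT samples, while p27-/-;Sox2+/- overlapped WT. The difference did not pass, at 0.33 in p27-/- (95% interval 0.09 to 0.57, limma adjusted p = 0.0927) and 0.27 in p27-/-;Sox2+/- (95% interval 0.03 to 0.51, limma adjusted p = 0.227). Axin1, the least abundant cytoplasmic member on the unscaled log2 values, differed by 0.04 and 0.00 log2.

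Calls in p27-/- rested on some samples more than others. Wnt4, Dkk3, Sfrp1 and Tcf7l2 were called in all 10 refits that each left out 1 sample. Sfrp4 lost its call without p27-/- replicate 2 (limma adjusted p = 0.0552) or 3 (0.0771). Fzd7 lost it without WT replicate 3 or 4 or p27-/- replicate 2 or 3 (0.055 to 0.149), Dkk2 without WT replicate 3 or 4 or any p27-/- replicate (0.059 to 0.12), and Fzd2 without any of these or WT replicate 1 (0.0524 to 0.133). Lgr6 kept its call only without WT replicate 2 or p27-/-;Sox2+/- replicate 3, and Sfrp5 only without WT replicate 1 or 2, with adjusted p reaching 0.164 and 0.149 in the other refits. The number of members called was 4 (12.1%) without p27-/- replicate 2 or 3, 5 (15.2%) without WT replicate 3 or 4, 6 (18.2%) without p27-/- replicate 1, and 8 to 12 in the other 5 refits. The share of all genes called moved with it, to 3.31% and 2.33% without p27-/- replicate 2 or 3, 4.72% and 4% without WT replicate 3 or 4, 3.53% without p27-/- replicate 1, and 5.39% to 9.9% in the others.

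In p27-/-;Sox2+/- against WT, Sfrp1 was called in all 10 refits that left out 1 sample. Without p27-/-;Sox2+/- replicate 2 it was the only member called, as were 0.463% of all genes, with limma adjusted p of 0.0606 for Dkk3, 0.0606 for Sfrp5, 0.106 for Wnt4 and 0.114 for Tcf7l2. Without replicate 3 of that genotype, 3 members and 1.39% of all genes were called, Wnt4 (0.0645) and Tcf7l2 (0.0504) being lost, and Tcf7l2 was also lost without WT replicate 4 (0.0545). Without WT replicate 2, the sample with the highest anterior lobe marker score, 8 members and 3.41% of all genes were called.

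The direct comparison of p27-/-;Sox2+/- with p27-/- called none of the 33 members by limma, against 0.145% of all genes tested (25 genes). At an unadjusted limma p under 0.05, as in 6.65% of all genes, there were 4 members (Wnt4, Fzd7 and Fzd8 higher and Sfrp5 lower in the compound mutant), and all 4 had groups that did not overlap, 12.1% of the members against 5.65% of all genes. No member was called in this comparison under any of the other 22 settings tried. The median log2 fold change was 0.08 over the members, of which 22 were fitted above 0 and 11 below, and 0.00 over all genes tested. The 95% intervals of 18 of the 33 lay within 0.5 log2 of no difference, and those of the other 15 reached beyond it.

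The wider pathway was described with 71 further genes in lists for Wnt secretion, other inhibitors, receptor turnover, cytoplasmic transducers, nuclear cofactors, planar cell polarity and beta-catenin targets, 60 of which were tested. In p27-/- 3 of these 60 (5%) differed from WT, all lower, and in p27-/-;Sox2+/- 2 of 60 (3.33%), 1 in each direction, beside 7.78% and 2.71% of all genes. Their median log2 fold changes were 0.01 and 0.02, those of all genes 0.01 and 0.01.

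Of 2 tested genes for the secretion of Wnt ligands, Wls was called lower in p27-/-. Wls (ENSMUSG00000028173, chromosome 3, 159839650 to 159938666) carries Wnt proteins to the cell surface, and its log2 values were 8.49, 8.46, 8.68 and 8.56 in WT, 7.94, 7.92 and 7.61 in p27-/- and 8.28, 8.22 and 8.34 in p27-/-;Sox2+/-. The order of genotypes was that of Wnt4, without overlap. The log2 fold change was -0.72 in p27-/- (SE 0.10, 0.606-fold, limma adjusted p = 0.00157) and -0.27 in p27-/-;Sox2+/- (SE 0.10, limma adjusted p = 0.191). The mutants differed by 0.46 (95% interval 0.22 to 0.69), which did not pass the threshold (limma adjusted p = 0.191). Porcn, the enzyme that attaches the lipid to Wnt proteins, differed from WT by 0.21 and 0.18 and did not pass.

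Ccnd1 (ENSMUSG00000070348, chromosome 7, 144929931 to 144939831), which encodes cyclin D1 and stands in many lists of beta-catenin targets, was the only gene called among 11 tested targets (9.09% in each mutant, beside 7.78% and 2.71% of all genes). Its log2 values were 9.40, 9.97, 9.35 and 9.77 in WT, 7.64, 8.01 and 7.43 in p27-/- and 8.46, 8.02 and 8.12 in p27-/-;Sox2+/-. Every mutant sample was more than 0.8 below the lowest WT sample. This gave a log2 fold change of -1.93 in p27-/- (SE 0.17, 0.262-fold, limma adjusted p = 5.33e-05) and -1.43 in p27-/-;Sox2+/- (SE 0.17, 0.372-fold, limma adjusted p = 0.00118). Of the other targets, which include the members Axin2, Lgr5 and Tcf7, none passed in either mutant, Notum and Sp5 were under the minimum (mean log2 values of 0.54 and -1.88), and Nkd1, a feedback inhibitor, differed by 0.18 and 0.02.

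Of 2 tested inhibitors outside the member rule, Kremen1 (ENSMUSG00000020393, chromosome 11, 5191551 to 5261713), a membrane receptor for Dkk proteins, was called lower in p27-/-. The samples had log2 values of 7.51, 7.44, 7.57 and 7.29 in WT, 6.96, 7.00 and 7.20 in p27-/- and 7.29, 7.12 and 7.36 in p27-/-;Sox2+/-. The p27-/- samples lay below all WT samples by a narrow gap, and the call (-0.40, SE 0.11, limma adjusted p = 0.047) was lost in each of the 10 refits that left out 1 sample, with adjusted p from 0.0516 to 0.166.

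Of 22 cytoplasmic transducers, Dact1 (ENSMUSG00000044548, chromosome 12, 71309884 to 71320107), which encodes a partner of Dishevelled, was the only one called, and only in p27-/-;Sox2+/- (4.55%, beside 2.71% of all genes). Its log2 values were 7.06, 7.36, 7.44 and 7.53 in WT, 7.61, 7.62 and 7.59 in p27-/- and 7.96, 8.06 and 8.02 in p27-/-;Sox2+/-. The 3 genotypes did not overlap, with the compound mutant highest. Against WT its difference was 0.67 log2 in p27-/-;Sox2+/- (SE 0.11, 1.59-fold, limma adjusted p = 0.00854) and 0.26 in p27-/- (SE 0.11, limma adjusted p = 0.18), and the mutants differed by 0.41 (95% interval 0.15 to 0.67, limma adjusted p = 0.354). The call was lost without p27-/-;Sox2+/- replicate 2 (limma adjusted p = 0.0607).

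The kinase gene Gsk3b differed from WT by 0.13 and 0.06, and the Dishevelled genes Dvl1, Dvl2 and Dvl3 by 0.12, -0.02 and 0.12 in p27-/- and 0.05, 0.20 and -0.02 in p27-/-;Sox2+/-, none past the threshold. None of 13 nuclear cofactors and none of 14 alternative receptors and planar cell polarity genes passed in either mutant against WT by limma, with 2 and 5 of them at an unadjusted p under 0.05 in p27-/-, beside 24.1% of all genes, and 0 and 3 in p27-/-;Sox2+/-, beside 17.8%. Rnf43 and Znrf3, the ubiquitin ligases that remove Frizzled receptors, did not pass. Rnf43 was 0.33 above WT in p27-/- (95% interval 0.10 to 0.56, limma adjusted p = 0.0778) and Znrf3 0.15 below it (95% interval from -0.40 to 0.10).

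Scores of the 8 marker lists were set beside these results. Only the stem cell and proliferation scores separated all mutant samples from all WT samples. The other scores overlapped between WT and each mutant. Of all genes tested, 7.78% were called against WT in p27-/- and 2.71% in p27-/-;Sox2+/-, for comparison with the marker calls below. Of 6 melanotroph markers, 2 were called in p27-/-, 1 higher and 1 lower, and 1 was called lower in p27-/-;Sox2+/-. The melanotroph score ranged from -0.22 to 0.15 in WT, from 0.01 to 0.21 in p27-/- and from -0.11 to -0.01 in p27-/-;Sox2+/-. Of 8 macrophage and microglia markers, 0 were called in either mutant. The fibroblast and mural score ranged from 0.01 to 0.42 in WT, from -0.55 to 0.19 in p27-/- and from -0.47 to 0.17 in p27-/-;Sox2+/-, with 2 of its 8 markers called lower in p27-/- and none in p27-/-;Sox2+/-. All 8 pituicyte markers were fitted below WT in both mutants, with 1 called in p27-/-, and the pituicyte score ranged from -0.58 to 0.89 in WT, -0.34 to -0.14 in p27-/- and -0.75 to 0.64 in p27-/-;Sox2+/-. The score over 8 pituitary stem cell markers was above that of every mutant sample (-0.30 to 0.02) in all 4 WT samples (0.11 to 0.16). All 8 of these markers were fitted below WT in p27-/-, with 1 called. In p27-/-;Sox2+/- 6 were fitted below WT and 2 above, with 0 called. Sox2 itself, with 1 copy removed in p27-/-;Sox2+/-, is in this list. All 8 endothelial markers were fitted below WT in p27-/- and 7 in p27-/-;Sox2+/-, with Kdr, a receptor for vascular endothelial growth factor, called lower in both (-0.83 and -0.67, limma adjusted p = 0.00966 and 0.0459). The endothelial score ranged from -0.09 to 0.34 in WT, from -0.30 to 0.00 in p27-/- and from -0.26 to 0.16 in p27-/-;Sox2+/-. Of 7 tested anterior lobe endocrine markers, 5 were fitted lower in p27-/- and 7 in p27-/-;Sox2+/-, and Fshb, which encodes a gonadotroph hormone subunit, was called lower in both (-2.04 and -2.27, limma adjusted p = 0.028 and 0.0294). The anterior lobe score ranged from -0.29 to 1.68 in WT, from -0.79 to 0.60 in p27-/- and from -0.72 to 0.04 in p27-/-;Sox2+/-. The score over 4 proliferation markers ran from -0.89 to -0.30 in WT, 0.58 to 1.12 in p27-/- and -0.20 to 0.31 in p27-/-;Sox2+/-, and 4 of 4 markers were called higher in p27-/- and 2 of 4 in p27-/-;Sox2+/-.

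Each of 3 marker scores was added to the fit in turn. With the pituicyte score, 5 members were called in p27-/- and 3 in p27-/-;Sox2+/- (15.2% and 9.09%, beside 2.55% and 0.84% of all genes). The fibroblast and mural score gave 3 and 1 (9.09% and 3.03%, beside 1.75% and 0.365%), and the anterior lobe score 12 and 6 (36.4% and 18.2%, beside 8.38% and 2.87%). Dkk3, Sfrp1 and Wnt4 were called in p27-/- with the first or the second score, at log2 fold changes of -0.98, 1.14 and -0.88 with the pituicyte score and -0.98, 1.16 and -0.92 with the fibroblast and mural score. Sfrp1 was called in p27-/-;Sox2+/- with these scores as well (1.03 and 1.06, limma adjusted p = 0.021 and 0.045). Some calls were lost at little change in size: with the fibroblast and mural score the p27-/- log2 fold changes of Tcf7l2, Sfrp4 and Sfrp5 were -0.53, -0.58 and -0.70 (limma adjusted p = 0.0937, 0.0952 and 0.148), and without it -0.65, -0.63 and -0.65. Fzd7 and Dkk2 lost their calls as well, at -0.41 and -0.43 (limma adjusted p = 0.189 and 0.144). Lgr6 and Fzd2 lost theirs at a larger change, to -0.36 and -0.32 (limma adjusted p = 0.326 and 0.265). The mean scores are themselves lower in both mutants than in WT, so these fits do not separate cell composition from genotype.

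**Figure D5:**
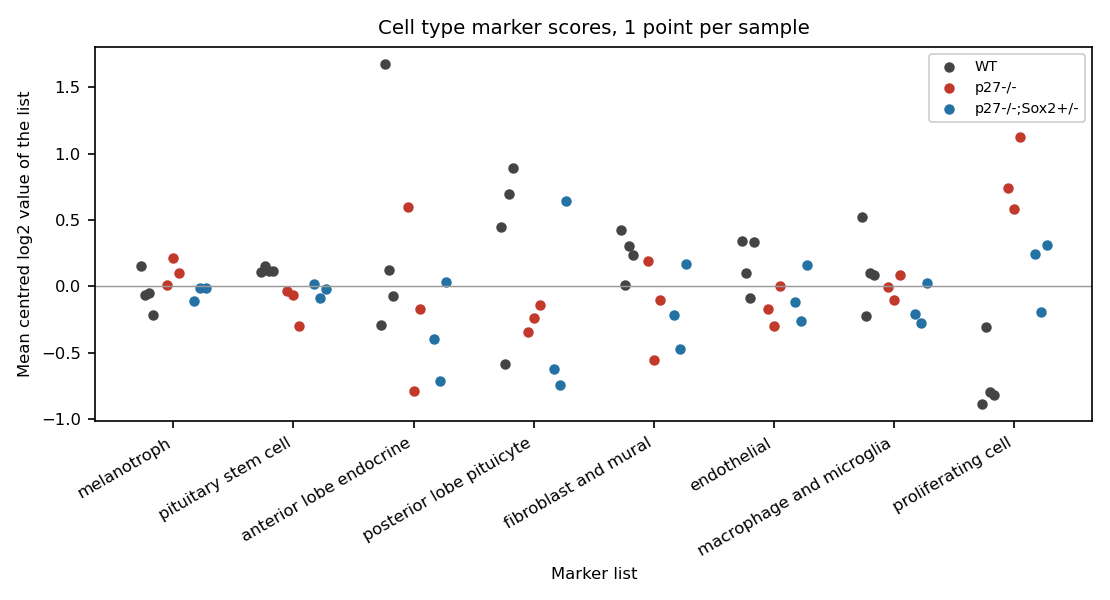
Mean centred log2 value of 8 cell type marker lists (vertical axis) in each sample, colored by genotype (WT grey, p27-/- red, p27-/-;Sox2+/- blue). The proliferating cell score is highest in p27-/- (0.58 to 1.12), and the posterior lobe pituicyte score spreads from -0.75 to 0.89 with WT and p27-/-;Sox2+/- samples at both ends.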

How the data were processed

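Total RNA of dissected ILs was amplified to cDNA and sequenced as 10 libraries. According to the study's methods, the authors aligned reads with STAR 2.5.2a, estimated gene counts with RSEM 1.3.30 without use of strand (Ensembl GRCm38) and normalised them with DESeq2 1.18.1. The deposited table holds log2 values for 29527 genes. The step from counts to log2 values is not given in the sources used here, and if it shrinks low counts, fold changes of low genes are understated. It holds no counts, so depth per sample is unknown and no count test was run. Reads of antisense partners cannot be told apart from a gene's own.

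Symbols were assigned to 22709 Ensembl IDs. Genes whose mean reached 10 before taking logs entered 1 limma 3.58.1 fit (R 4.3.3) of the 3 genotypes and 10 samples, with eBayes trend, 2-sided, and Benjamini-Hochberg adjustment over 17268 genes; the script was tested on simulated data. Levels per kb used the longest GENCODE vM1 protein-coding transcript (51 of 51 members). Positions and promoter windows are from RefSeq GRCm38.p6.

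The members and lists were chosen with earlier results of these data known. Members named were those that passed in any comparison or did not overlap with an unadjusted p under 0.05, the highest and lowest of each class by mean, and a set of core pathway genes. Marker lists of 8 cell types were scored as means of centred log2 values. Alternatives changed the filter, fit, variance model, weights, centring, normalization, replicate block, Xist covariate or 1 left-out sample, and marker score covariates were added after seeing the data. All columns of the table were used.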

Additional observations from a re-analysis of the deposited data

Results flagged for a closer look

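In 47 tested genes named or counted among the members, the highest and lowest of the 4 WT samples were compared with the other 3 by Dixon's ratio against its 95% critical value, which chance exceeds in about 1 in 20 groups. Dvl1, a Dishevelled gene, exceeded it with a ratio of 0.851, since WT replicate 3 had a log2 value of 7.99 and the others 8.23 to 8.27. Sox2 exceeded it with a ratio of 0.885, since the same sample was highest at 7.75 and the others lay between 7.34 and 7.39. The cause of either gap was not tested. No member differed between the mutants past the threshold.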

How the results depend on the processing

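In p27-/- against WT, 6 members in place of 10 were called when only the 2 groups compared were fitted, 5 with the pituicyte score and 3 with the fibroblast and mural score, 12 with array weights or the anterior lobe score, and from 4 to 12 when 1 sample was left out. Of all genes, 807, 440, 303, 1764, 1447 and from 403 to 1709 were called in these fits, in place of 1343. In p27-/-;Sox2+/- against WT, 9 in place of 5 members were called with array weights, 3 with the pituicyte score, 1 with the fibroblast and mural score, 6 with the anterior lobe score, and from 1 to 8 when 1 sample was left out, and of all genes 1240, 145, 63, 495 and from 80 to 658 in place of 468. Among the other pathway genes, p27-/- had 5 calls in place of 3 with a minimum mean of 50 (9.43%, beside 9.46% of all genes). There were 6 with array weights (10%, beside 10.2%) and 7 with the anterior lobe score (11.7%, beside 8.38%). From 2 to 6 were called when 1 sample was left out (3.33% to 10%, beside 2.33% to 9.9%). In p27-/-;Sox2+/- against WT the calls were 1 in place of 2 with the fibroblast and mural score (1.67%, beside 0.365% of all genes). They were from 1 to 3 when 1 sample was left out (1.67% to 5%, beside 0.463% to 3.81%). Between the mutants, array weights gave 4 in place of 0 (6.67%, beside 1.64%). The marker score fits were chosen after seeing the data.

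The labels do not say whether samples with the same replicate number belong together. Of 9 same-numbered pairs, 1 had deviations correlated above 0.1 (range -0.24 to 0.18), and 1 of 9 samples correlated best with its own number. So few pairs cannot decide whether the samples were paired. With the replicate block, 6 members were called in p27-/- and 3 in p27-/-;Sox2+/- against WT, beside 3.45% and 1.21% of all genes.

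For the 33 single-gene differences that were called, or did not overlap at an unadjusted p under 0.05, 616 values under other settings kept their direction and side of the threshold, 100 lost the call, 4 gained it and 0 reversed, and the cause was not tested. Of the other 76 differences of tested members, 31 changed sign under at least 1 setting (none of these above 0.45 log2 in size), and 8 passed the threshold under at least 1 (Fzd5, Lgr5 and Lrp5 in both mutants, Rspo4 in p27-/- and Lgr6 in p27-/-;Sox2+/-, each against WT). With 3 or 4 samples a genotype and unknown depth, differences inside the intervals given cannot be resolved.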
